A study of Mus musculus with 12 samples.

Results

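The 15475 regions described here were peaks of a single library, the knockdown size3 immunoprecipitate, that overlapped by at least 1 bp no peak of the other 5 libraries of the study. They were selected on the peak calls of all 6 lists and on no other measure. They made up 88.0% of the 17592 peaks of that library, and the 6 peak lists together held 46669 peaks. Chromatin immunoprecipitation followed by sequencing was done with an antibody against MACF1 in MC3T3-E1, a mouse line of osteoblast precursors. The 12 samples formed 4 groups of 3 libraries, labelled 1, 2 and size3: MACF1 knockdown immunoprecipitates, MACF1 knockdown inputs, control immunoprecipitates and control inputs. Immunoprecipitates of both genotypes used the same antibody, whose target is the depleted protein, from lots that the labels do not tie to libraries. No label says how the knockdown was made, what size3 means, or whether cultures were separate, and p-values comparing the groups therefore measure the spread among these libraries alone, which may be technical. Peak positions do not measure expression, so neither the knockdown nor the osteoblast identity of the cells was checked here.

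MACF1, microtubule-actin crosslinking factor 1, is a very large spectraplakin that ties actin filaments to microtubules. It is also known to act in Wnt signalling, in which beta-catenin enters the nucleus and works with TCF and LEF factors at its target genes, a pathway that promotes bone formation by osteoblasts. An immunoprecipitate of sheared chromatin can recover DNA that the target touches directly or through other proteins, and also open chromatin such as active promoters, so a peak alone does not show binding by MACF1.

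Promoters inside a few of the members with the highest scores are printed as examples of recovered sequence. The peak caller gave these members high false discovery rates: 100% at Dpm1, 20% at Map3k10 and Zfp607b and 16.67% at Kcna6. They do not stand for the members as a set, of which 7.47% lay within 1 kb of a start on chromosomes with annotated starts. In the lines that follow, the 250 bases before a transcription start are given 5′ to 3′ on the strand of the gene, from RefSeq on GRCm38.p6. Capitals mark CG pairs, which are frequent in the promoters of broadly active genes. Dpm1, which encodes the catalytic subunit of dolichol-phosphate mannose synthase, starts in the member with the highest score of all (chr2:168229377-168231525). Its printed bases lie at chr2:168230380-168230629 on the minus strand, and Mocs3, a gene of molybdenum cofactor synthesis, starts on the opposite strand of nearly the same bases. Map3k10, which encodes a mixed lineage kinase, and Zfp607b, a zinc finger gene, start head to head in another (chr7:27673481-27675050). Their printed bases lie at chr7:27674582-27674831 on the minus strand and chr7:27674411-27674660 on the plus strand. Kcna6, a potassium channel gene with the fewest CG pairs of those printed (chr6:126740675-126740924, minus strand), starts in a further member. Zfp607b and Kcna6 were chosen for printing after their values were seen.
Dpm1: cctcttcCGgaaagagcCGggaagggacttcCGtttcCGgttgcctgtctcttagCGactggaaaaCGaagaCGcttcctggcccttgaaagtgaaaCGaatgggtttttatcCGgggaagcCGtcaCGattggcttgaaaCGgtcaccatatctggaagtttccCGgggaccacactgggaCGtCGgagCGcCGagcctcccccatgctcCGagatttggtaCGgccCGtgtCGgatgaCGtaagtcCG
Map3k10: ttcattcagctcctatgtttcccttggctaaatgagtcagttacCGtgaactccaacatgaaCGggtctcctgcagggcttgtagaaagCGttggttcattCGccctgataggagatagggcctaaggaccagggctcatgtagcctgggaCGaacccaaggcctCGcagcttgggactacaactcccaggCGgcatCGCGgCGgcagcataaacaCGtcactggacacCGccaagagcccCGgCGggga
Zfp607b: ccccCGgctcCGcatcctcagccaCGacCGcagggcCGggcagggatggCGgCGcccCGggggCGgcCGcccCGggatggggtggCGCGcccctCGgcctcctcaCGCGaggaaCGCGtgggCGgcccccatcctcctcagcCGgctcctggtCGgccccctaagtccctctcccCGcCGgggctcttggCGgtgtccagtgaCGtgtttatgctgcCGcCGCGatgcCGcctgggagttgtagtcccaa
Kcna6: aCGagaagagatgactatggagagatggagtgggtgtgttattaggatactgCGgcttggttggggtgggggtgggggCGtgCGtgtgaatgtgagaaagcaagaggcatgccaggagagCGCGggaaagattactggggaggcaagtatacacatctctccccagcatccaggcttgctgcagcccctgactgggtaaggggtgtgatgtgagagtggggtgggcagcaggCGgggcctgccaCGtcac
The Dpm1 bases hold 23 CG pairs, those of Map3k10 14, those of Zfp607b 29 and those of Kcna6 8.

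MicroRNA hairpins gave another readable set. Of 1005 RefSeq hairpins, 28 (2.79%) overlapped a member by at least 1 bp. Members covered 11.5 Mb of an annotated span of 2722 Mb, and 58.1% of their summits lay inside protein-coding genes, as do many hairpins. The hairpin share was not counted for the other sets of peaks, so it is not read as a trait of microRNA loci. A member of 1259 bp inside Mcm7, a gene of the replicative helicase, covered the hairpins of Mir25, Mir93 and Mir106b (chr5:138164986-138166244), with 43 reads and a fold enrichment of 5.25. Another member covered Mir31 (chr4:88910274-88910739), with 15 reads and a fold enrichment of 7.34. The mature sequences below were chosen for printing after the overlap was seen, and capitals mark the seed, bases 2 to 8.
mmu-miR-93-5p: cAAAGUGCuguucgugcagguag
mmu-miR-106b-5p: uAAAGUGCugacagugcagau
mmu-miR-25-3p: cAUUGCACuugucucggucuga
mmu-miR-31-5p: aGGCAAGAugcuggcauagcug
miR-93-5p and miR-106b-5p share the seed AAAGUGC, while miR-25-3p and miR-31-5p each have another seed. The matches concern the DNA of these loci and say nothing of microRNA levels.

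The library behind the members was shallow and almost free of duplicates. Its immunoprecipitate kept 8175173 reads and its input 10199730, with a redundant rate (the share of reads dropped because they start at an occupied position) of 0.02 in each. The redundant rate was 0.51 and 0.65 in knockdown immunoprecipitates 1 and 2, against 0.25, 0.16 and 0.01 in control 1, 2 and size3. Control size3, with 10698067 immunoprecipitate reads, is therefore the closest library in depth and redundancy. The same rule gave 19312 library-only peaks in knockdown 1, 4336 in knockdown 2, 681 in control 1, 111 in control 2 and 2021 in control size3. Scaled to 1000000 kept immunoprecipitate reads, these were 1893 peaks in knockdown size3, 1046 in knockdown 1 and 778 in knockdown 2, against 26.0, 3.35 and 189 in control 1, 2 and size3.

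Most of what the rule set aside was shared with knockdown 1. Among the 2117 shared peaks, 2034 touched the list of knockdown 1, 24 that of knockdown 2, 3 that of control 1, 2 that of control 2 and 72 that of control size3. Few members were near misses. Within 200 bp of a peak of another list lay 120 members, and within 1 kb 664 (4.29%), although 82.7% lay within 50 kb of one. The member closest to a peak of another list missed it by 4 bp (chr10:108519046-108519452, 11 reads, fold enrichment 8.55). The shared peak with the smallest overlap had 10 bp in common (chr2:28654269-28654620, 14 reads, fold enrichment 8.82). Median width was 697 bp for the 120 members just outside the rule's threshold and 713 bp for the 43 shared peaks with at most 200 bp in common. Members were scattered, with a median gap of 28.2 kb to the next member and 14.8% within 5 kb of one.

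Members were small peaks. The following shape values come from the list that chose the members and are a description with no test. Median width was 631 bp, with the middle 50% of members between 518 and 844 bp and extremes of 263 and 6069 bp. A median member held 16 reads, the fewest held 11 and the most 186, and 67.1% held at most 20. All members together covered 11.5 Mb and held 312513 reads, which is 3.82% of the immunoprecipitate. Their fold enrichment, the authors' ratio of reads at the summit to the local input background, had a median of 8.27 and ran from 2.86 to 21.95. Read density was nearly even across members, with a median of 26.5 reads per kb and 80% of members between 21.6 and 33.9.

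Sets of neighbouring peaks differed in shape from the members. The 2117 shared peaks had a median of 826 bp, 23 reads and a fold enrichment of 7.12. Peaks found only in knockdown 1, which kept 18454330 reads, had medians of 943 bp, 43 reads and 5.09. Peaks found only in control size3 resembled the members in these medians, at 647 bp, 16 reads and 8.33, but their middle 50% was narrower, from 562 to 742 bp. At least 2 kb wide were 201 members, 87 shared peaks, 3341 peaks found only in knockdown 1 and 3 found only in control size3. With the knockdown size3 list split into 5 equal bins of width, members made up 94.999% of the narrowest bin and 77.5% of the widest. Split by reads, they made up 94.9% of the lowest bin and 77.2% of the highest, but split by fold enrichment 79.8% of the lowest and 92.4% of the highest.

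**Figure D1:**
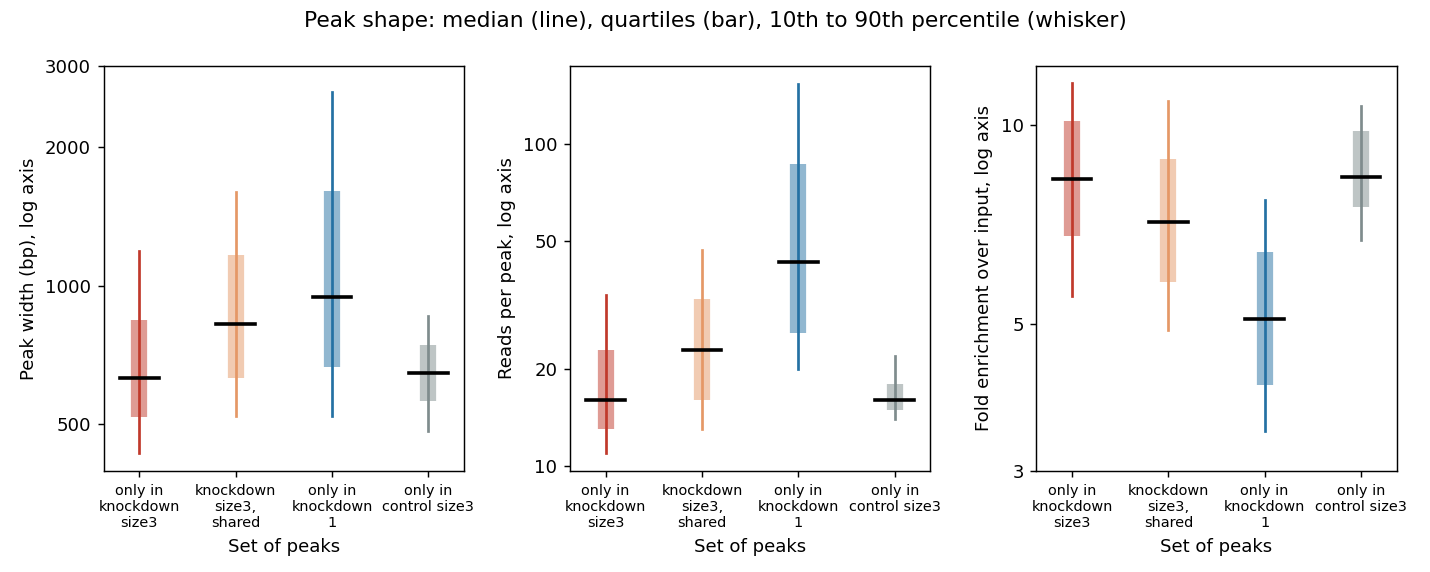
Peak width in bp, reads per peak and fold enrichment over input (log axes) for peaks found only in knockdown size3, shared knockdown size3 peaks, peaks found only in knockdown 1 and peaks found only in control size3. Lines are medians, bars the quartiles and whiskers the 10th to 90th percentile; the members' medians are 631 bp, 16 reads and 8.27.

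The plot of peak shape shows wider peaks with more reads and lower folds in the shared and knockdown 1 sets than in members, while control size3 lies close to the members in all 3 medians. The score, which is 10 times the negative log10 of the authors' p-value, had a median of 61.0 in members, 63.0 in shared peaks, 63.2 in knockdown 1 and 56.6 in control size3, and 678 members reached 100. The false discovery rate, which the caller estimates by swapping immunoprecipitate and input, separated the size3 pair more than the score did. It was at most 5% for 8882 members (57.4%) and for 0 of the 2021 peaks found only in control size3, whose lowest rate was 48.75%. Shared peaks reached that limit in 60.4% of cases and peaks found only in knockdown 1 in 99.2%. Of all peaks of knockdown 2, however, only 51 of 4513 did, so low rates were not common to the knockdown libraries. In control 1 and 2 the counts were 1 of 772 and 0 of 198. The members with the highest scores had poor rates, from 12.5% to 100% for the 16 with a score of at least 170, so score and rate rank the members differently. Reads and peaks were set against 1 input, and no second library holds these regions as peaks, so none of these values has a replicate check.

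Members were unevenly spread over the chromosomes. The density was highest on chromosome 19, with 10.93 members per Mb, followed by 10.89 on chromosome 17 and 10.4 on chromosome 11. It was 1.76 on chromosome 13 and 3.55 on chromosome 9, although chromosome 9 holds 9.65 protein-coding genes per Mb and chromosome 13 holds 6.89. Chromosome X held 75 members, or 0.439 per Mb, chromosome Y none, and unplaced scaffolds 1. Chromosome Y held 1 peak found only in knockdown 1 and 0 found only in control size3.

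Chromosomes 13 and X were also thinly covered in the other sets. Peaks found only in knockdown 1 numbered 3.98 per Mb on chromosome 13 and 1.39 on chromosome X, and control size3 had 9 and 1 such peaks there. Chromosomes 1 to 6, 10, 11, 17 and 19 held 67.4% of members and 70.6% of shared peaks. They held 61.2% of the peaks found only in knockdown 1 and 88.4% of those found only in control size3, against 55.1% of protein-coding genes. These chromosomes were grouped after their values were seen, as those with the most peaks found only in control size3 per Mb. The 88.4% of control size3 is therefore high by that choice and is not a result. On chromosome 15 the members reached 8.31 per Mb and the peaks found only in control size3 0.308 per Mb.

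**Figure D2:**
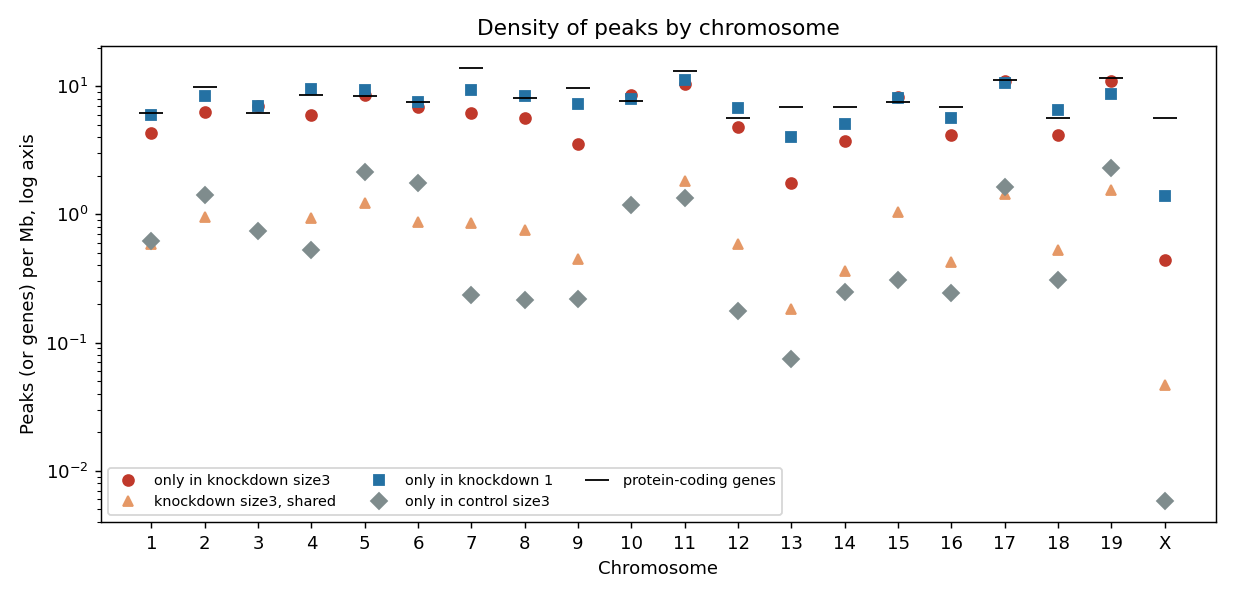
Peaks per Mb (log axis) on chromosomes 1 to 19 and X for peaks found only in knockdown size3, shared knockdown size3 peaks, peaks found only in knockdown 1 and peaks found only in control size3, with black dashes for protein-coding genes per Mb. Members are lowest on chromosome X (0.439 per Mb) and chromosome 13 (1.76) and highest on chromosome 19 (10.9).

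Across the 20 chromosomes of that plot, member density had a Pearson r of 0.597 and a Spearman rho of 0.573 with gene density. It had r = 0.854 and rho = 0.805 with the density of peaks found only in knockdown 1, and r = 0.776 and rho = 0.820 with that of peaks found only in control size3. The points share libraries, depth and the genome, and the values are descriptions of 20 chromosomes. Reads per member moved with density too. The median member held 13 reads on chromosomes 13 and X, 14 on chromosome 9, 21 on chromosome 19 and 22 on chromosome 17 (r = 0.941 and rho = 0.953 with member density).

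More members lay inside protein-coding genes than outside them. Of the 15475 summits, 58.1% (95% Wilson interval 57.3 to 58.8) lay inside a protein-coding gene and 10.8% (10.3 to 11.3) within 1 kb of either end of one. Shared peaks had 71.1% and 29.0%, peaks found only in knockdown 1 had 60.7% and 14.4%, and peaks found only in control size3 had 50.5% and 4.80%. The intervals cover counting error only, and peaks of 1 library are not replicates. For the 15096 members on chromosomes with annotated starts, which leave out chromosome 18, 7.47% lay within 1 kb of a start and 2.48% within 1 kb of the other end only. A further 50.2% lay elsewhere inside genes and 39.8% elsewhere outside them. Starts were known for 17492 of the 21887 genes, so some members at the ends of the other genes count as elsewhere. The gene table gives no exons, so exons, introns and UTRs were not separated.

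Summits near starts were centred just inside the gene. Of the 1128 summits within 1 kb of a start, 762 lay at it or downstream and 366 upstream, with a median position of 133.5 bp into the gene. The first 250 bp of the gene held 355 summits, or 2.35% of members, against at most 0.325% in any 250 bp bin from 2 to 5 kb on either side. The same bin held 5.75% of shared peaks, 4.08% of peaks found only in knockdown 1 and 0.452% of those found only in control size3. Members at starts were larger than others: their median was 869 bp and 24 reads, against 649 bp and 17 reads elsewhere inside genes and 593 bp and 15 reads outside. Their median fold enrichment was lower, at 7.23, against 8.09 inside and 8.86 outside genes.

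**Figure D3:**
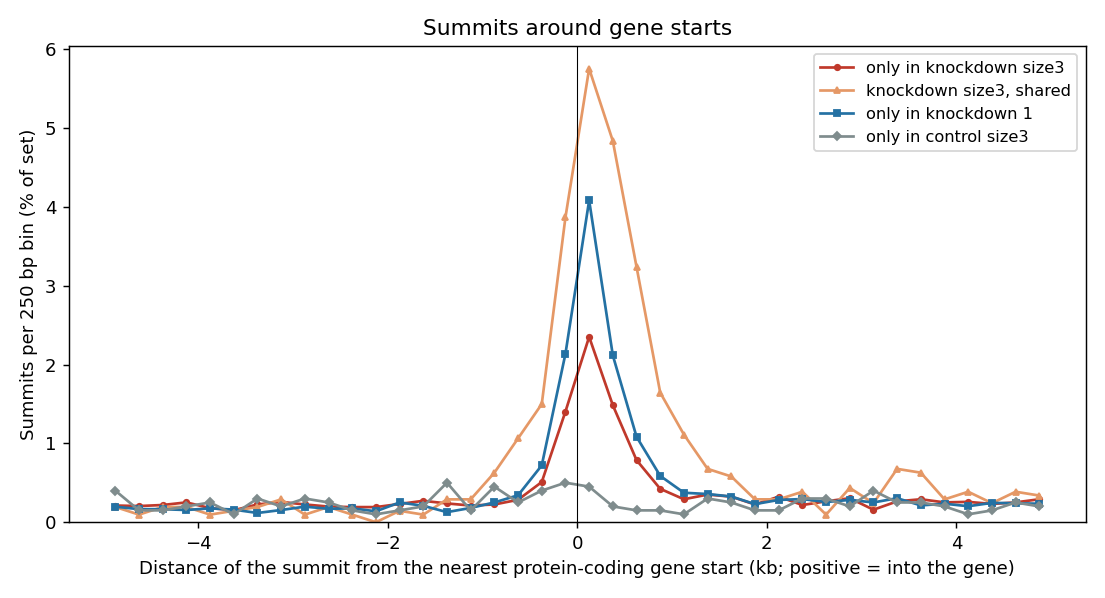
Share of each set's summits per 250 bp bin (%) by distance from the nearest protein-coding gene start in kb, positive into the gene. The first bin inside the gene holds 2.35% of peaks found only in knockdown size3, 5.75% of shared knockdown size3 peaks, 4.08% of peaks found only in knockdown 1 and 0.452% of peaks found only in control size3.

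The profile around starts shows 3 sets with a peak just inside the gene and a nearly flat line for control size3. Outside protein-coding genes lay 6489 members, at a median of 30.0 kb from the nearest one, and 1597 of them (10.3% of all members) were over 100 kb away. The share over 100 kb away was 5.34% for shared peaks, 10.1% for peaks found only in knockdown 1 and 14.8% for those found only in control size3.

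Members that contain a start often lie in CG-rich promoters. Of the 1128 members near a start, 888 held the start of at least 1 gene, 129 those of at least 2 genes and 122 starts on both strands, as at Dpm1 and Mocs3. Of 32851 RefSeq promoter windows of 300 bases, 1299 (3.95%) had their start in a member. The share was 10.1% for peaks found only in knockdown 1, 1.44% for shared peaks and 0.125% for peaks found only in control size3. The GC content of the members' windows had a median of 61.3%, against 66.0% for shared peaks, 63.0% for knockdown 1, 55.7% for the 41 windows of control size3 and 52.7% for all windows. Median CG pairs per window numbered 21 for members and 7 for all windows, and 66.5% of the members' windows held at least 15 pairs, against 34.6% of all. GC-rich DNA is also recovered and amplified unequally in library preparation, and its part in these shares was not tested.

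Short motifs were counted in these 300-base windows on both strands, as a description. The GC box GGGCGG, bound by Sp1 family factors, was in 59.7% of the members' windows and 35.7% of all windows. CCGGAAG, the core of ETS family sites, was in 14.6% and 8.86%, TTCCCGCC, an E2F site, in 4.00% and 2.19%, and CACGTG in 9.93% and 7.15%. The broader E-box CANNTG, which includes CACGTG, was in 66.4% and 72.3%. CTTTGAT, bound by TCF and LEF factors, was in 2.00% of the members' windows and 3.73% of all. TGTGGT, the core of Runx sites, was in 13.6% and 16.8%. CAGCTG, another E-box, was in 17.5% of the members' windows and 16.3% of all. The windows differ in GC content as given above, and its part in the motif shares was not tested. Shared and knockdown 1 windows also departed from all windows, so these shares are not read as traits of members. The GC box was in 73.9% of windows of shared peaks and 63.7% of those of knockdown 1. The ETS core was in 11.7% and 13.5%, the E2F site in 4.24% and 3.63%, and the TCF and LEF site in 1.69% and 2.21%. The Runx core was in 10.4% and 11.3%. Of the 41 windows of control size3, 26.8% held the GC box and 4.88% the ETS core. The Runx core was in 12.2% of them and the TCF and LEF site in 0%. These shares were below those of members, but CANNTG (73.2%), CACGTG (17.1%), CAGCTG (19.5%) and the E2F site (4.88%) were above. The ETS core and the E2F site were in 2 of these windows each. The Dpm1 window holds CCGGAAG and TGTGGT, and the Map3k10 window none of the motifs searched.

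Members with the highest scores lay at starts and beside genes of varied function. The Dpm1 member was 2149 bp wide with 91 reads, a score of 243.86 and a fold enrichment of 8.30, but a false discovery rate of 100%. Others lay near Ankhd1, 279894 bp from the protocadherin gene Pcdh7 (chr5:58412793-58413678, 39 reads), at the Map3k10 and Zfp607b starts (56 reads) and near a start in Tenm4, a teneurin adhesion gene (chr7:96209664-96211465, 50 reads). The last were at Kcna6 (80 reads) and beside Oxr1, an oxidation resistance gene (chr15:41446620-41448412, 57 reads). The nearest peak of any other library to these regions lay between 2247 bp (near Pcdh7) and 104833 bp (at Oxr1) away.

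The members with the highest fold enrichments were 391 to 788 bp wide, and 4 of 6 lay outside protein-coding genes. Among members with a false discovery rate of at most 5%, the highest fold was 21.95, in a region of 391 bp with 19 reads lying 175369 bp from Zwint, a kinetochore gene (chr10:72479283-72479673). A region near Pde7b, a phosphodiesterase gene, one in Dapk1, a death-associated kinase gene, and one near 1700010I14Rik each had a fold of 20.79. One in the chloride transporter gene Clcn4 had 19.9 and one near Plekhb2 19.64. These 6 regions held 18 to 24 reads.

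The widest members held the most reads and had low folds. The widest spanned 6069 bp across Rhbdl1, a rhomboid protease gene, and Stub1, which encodes a co-chaperone ubiquitin ligase (chr17:25832017-25838085), with 186 reads and a fold of 4.62. It was followed by members in Polrmt, the mitochondrial RNA polymerase gene (5305 bp, 171 reads), at Lrfn4 and Pcx, the pyruvate carboxylase gene (4702 bp, 143 reads), at Ap5b1, an adaptor protein gene (4601 bp, 165 reads), and in Ptprs, a receptor phosphatase gene (4545 bp, 169 reads). All 5 lay on chromosomes 10, 17 or 19.

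At the level of genes, 6865 of 21887 protein-coding genes (31.4%) had a member in the body or within 5 kb. Peaks found only in knockdown 1 reached 8767 genes (40.1%) and those found only in control size3 1086 (4.96%). Genes with both a member and a peak found only in knockdown 1 numbered 3950, which is 57.5% of the members' genes and 45.1% of those of knockdown 1. Gene length moved with these counts. Genes with a member had a median length of 35.2 kb, against 12.2 kb for those without, and a member was found at 14.8%, 29.3% and 50.0% of genes in 3 equal bins of length, from short to long. A single member was found at 4342 genes, 2 at 1484 and at least 10 at 28.

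The genes with the most members were long. Sdk1, a sidekick adhesion gene of 974 kb, held 20, and Asic2, an acid-sensing channel gene, 18. Arhgap26 held 13, and the cadherin gene Cdh23, the postsynaptic gene Dlgap2, the Notch coactivator gene Maml3 and Tenm4 held 12 each in the gene body. The density was 2.05 members per 100 kb in Sdk1, 1.65 in Asic2 and 3.05 in Cdh23.

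Genes of osteoblast differentiation had a member in 19 of 46 cases (41.3%, against 31.4% of all protein-coding genes), with a median gene length of 19.1 kb. Peaks found only in knockdown 1 reached 20 of the 46 (43.5%). Among the defining osteoblast markers, Runx2, the master factor of the lineage and a long gene of 319 kb, held 6 members. The strongest had 12 reads and a fold of 12.16 (chr17:44728505-44728943). Alpl, the alkaline phosphatase gene, and Col1a2, a type I collagen gene, held 1 each, and Sp7, Col1a1, Bglap, Ibsp and Spp1 held 0. Fgfr2, a growth factor receptor gene, had a member at its far end (chr7:130161774-130162490, 17 reads, fold 10.16). Tnfrsf11b, which encodes the osteoclast inhibitor osteoprotegerin, had one at an end (chr15:54277918-54278739, 22 reads, fold 8.82), and Twist2, a helix-loop-helix gene, one near its start (26 reads, fold 6.30).

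Of Wnt pathway genes, 42 of 86 (48.8%, against 31.4% of all protein-coding genes) had a member, with a median length of 36.5 kb. In the longest length bin, of genes over 31.2 kb, the share was 50.0%, so the Wnt list is not read as above genes of its length. Among the nuclear TCF and LEF partners of beta-catenin, a member of 1135 bp with 27 reads held the start of Lef1 (chr3:131110173-131111307, fold 8.65). Of the 61 genes of the list with a promoter window, Lef1 alone had its start in a member. That share of 1.64% was below the 5.44% of all protein-coding genes with a promoter window. Tcf7l1 had 5 members, including one near its start (chr6:72789450-72789875, 12 reads, fold 9). Znrf3, a ubiquitin ligase gene that lowers Frizzled receptors, had a member beside an end (chr11:5445115-5445713, 22 reads, fold 8.24). Peaks found only in knockdown 1 reached 62 of the 86 Wnt genes (72.1%) and those found only in control size3 10 (11.6%).

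BMP and TGF-beta genes had a member in 18 of 44 cases (40.9%, against 31.4% of all protein-coding genes), with a median length of 61.4 kb. That is below the 50.0% of the longest length bin. Those named by rule were the receptor genes Tgfbr2 (chr9:116099117-116099943, 24 reads, fold 15.02) and Bmpr1b (chr3:142136353-142136835, 16 reads, fold 14.2) and the inhibitor gene Smad7 (19 reads, fold 9.30). Cytoskeletal crosslinker and plus-end genes, a list that includes Macf1, had a member in 27 of 46 cases (58.7%, against the same 31.4%). Their median length was 76.9 kb, and the longest length bin stood at 50.0%. Syne2, a nesprin gene, had one at its start (chr12:75817945-75819480, 35 reads, fold 7.53), and Sptbn4, a spectrin gene, one near its start (chr7:27356670-27357396, 17 reads, fold 9.45). Camsap3, a minus-end binding protein gene, had one at an end (chr8:3587421-3588139, 15 reads, fold 6.34). Macf1 held 1, inside the gene, with 29 reads, a fold of 5.90 and a false discovery rate of 5.15%, and its nearest peak of another library lay 20087 bp away.

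Short housekeeping genes had a member less often than all protein-coding genes (31.4%), though not less often than the shortest length bin (14.8%). Some of their members lay at starts. Cytosolic ribosomal protein genes had a member in 12 of 59 cases (20.3%; median length 3.16 kb) and their start in a member in 6 of 45 cases (13.3%), against 951 of 17492 protein-coding genes with a promoter window (5.44%). Rpsa had 21 reads and a fold of 13.86 at its start (chr9:120127531-120128082), Rpl24 13 reads and 10.4 (chr16:55966258-55966804), and Rps4x 19 reads and 8.40 (chrX:102188986-102189544). Fau, Rpl19 and Rps7 made up the rest. Respiratory chain genes had 10 of 56 (17.9%), with the start in a member in 2 of 44 cases (4.55%, against the same 5.44%), Ndufb10 and Uqcrc1. Uqcrfs1 and Atp5c1 had a member at an end, which for Atp5c1 held the start of its neighbour Kin.

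Nuclear regulators formed a pair of lists. E2F and helix-loop-helix factors had a member in 9 of 26 cases (34.6%, against 31.4% of all protein-coding genes), with Pcgf6, a Polycomb partner of E2F6, at its start (chr19:47050218-47051149, 35 reads, fold 6.30), and E2f5 and Rbl2 inside the gene. The E2f5 member missed a peak of another library by 59 bp. Histone modifiers had 22 of 50 (44.0%, against 50.0% in the longest length bin), at a median length of 44.96 kb. Among them was a member holding the start of Suz12, a Polycomb subunit gene (chr11:79992600-79993182, 21 reads, fold 9.45). Others lay near the start of the deacetylase gene Sirt1 (22 reads, fold 11.2) and at an end of Sirt6 (47 reads, fold 6.16).

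Markers of other cell types are set beside the 31.4% of all protein-coding genes. Adipocyte genes had 7 of 23 (30.4%), about that share, among them Pparg (23 reads, fold 11.04), Lpl and Zfp423, and chondrocyte genes 9 of 18 (50.0%), among them Sox6 (15 reads, fold 13.86), Col9a1 and Col9a3. Skeletal muscle genes had 10 of 23 (43.5%), including Ckm, Pax3 and Myh4, and blood and macrophage genes 6 of 25 (24.0%), including Ctsk, Cd14 and Acp5. Neuronal adhesion and synapse genes, the longest list at a median of 476 kb, had 31 of 52 (59.6%), with 97 members in all. Shank1, Snap25 and Grm5 were among them. Of the list's 31 genes with a promoter window, none had its start in a member, against 5.44% of all protein-coding genes with a window. The same held for the adipocyte, chondrocyte, blood and macrophage and vomeronasal lists, with 17, 13, 17 and 321 such genes. Olfactory receptor genes had 21 of 1110 (1.89%), for example Olfr414, Olfr735 and Olfr1349, and vomeronasal receptor genes 5 of 353 (1.42%), for example Vmn1r4, Vmn1r54 and Vmn2r93. Both families are short, with medians of 0.950 kb and 0.960 kb, and consist of many similar copies.

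**Figure D4:**
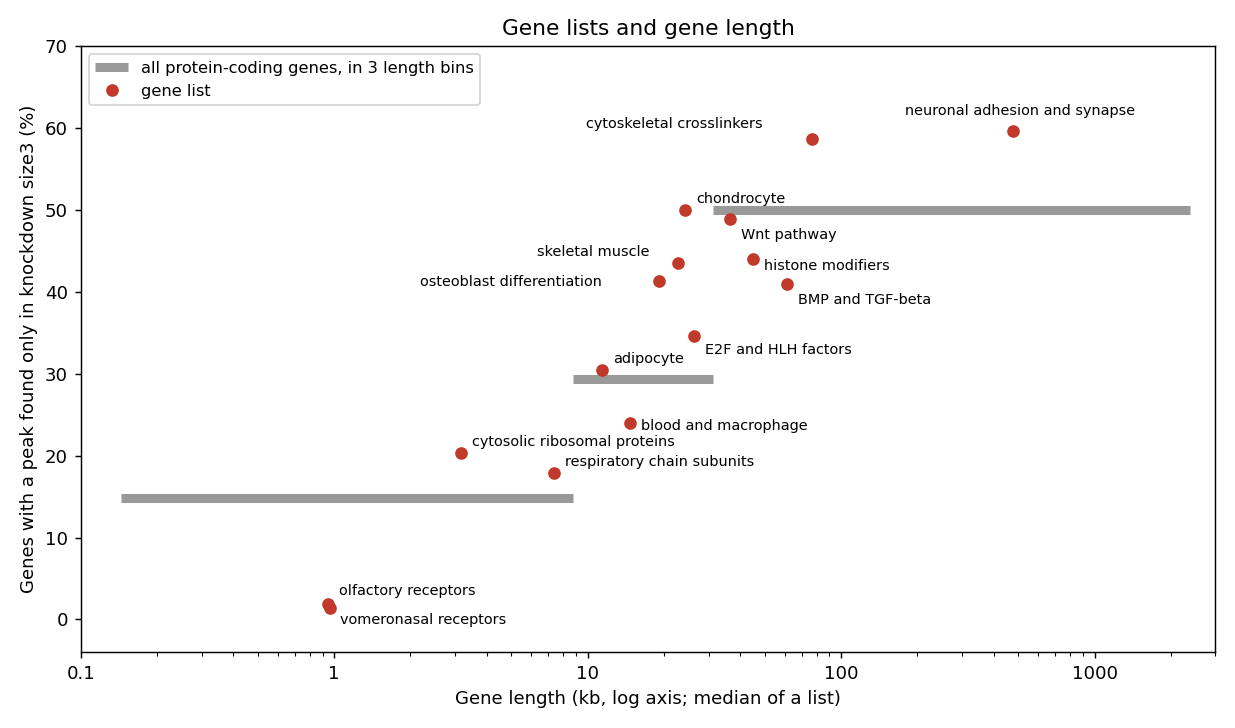
Percent of genes with a peak found only in knockdown size3 in the body or within 5 kb, against gene length in kb (log axis), for 15 gene lists (points, at their median length) and for 3 equal length bins of all protein-coding genes (grey bars). Lists run from 1.42% (vomeronasal receptors) to 59.6% (neuronal genes), against 14.8%, 29.3% and 50.0% in the bins.

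In the plot of lists against gene length, the receptor families with the shortest genes stand lowest and the neuronal list with the longest genes highest, but the order between them does not follow length throughout. BMP and TGF-beta genes, at a median of 61.4 kb, stand at 40.9%, and chondrocyte genes, at 24.3 kb, at 50.0%. No list was tested against others.

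The same rule in each library set the knockdown against the control group. Library-only peaks averaged 13.41 ± 1.16 on the log2 scale in knockdown and 9.06 ± 2.11 in control (SD, n = 3 each), a difference of 4.35. Every knockdown library had more than every control library. These counts come from the peak calls that chose the members and are a description, with no test. Peaks were called in libraries of different depth and redundancy, given above, whose part in this difference was not tested. Within the size3 label, the counts were 15475 in knockdown and 2021 in control.

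In gene context the groups overlapped, through knockdown 2 alone. The share of library-only summits within 1 kb of a gene end was 14.4%, 1.48% and 10.8% in knockdown 1, 2 and size3, against 2.79%, 0% and 4.80% in control 1, 2 and size3. The means were 8.89% ± 6.67 in knockdown and 2.53% ± 2.41 in control (SD, n = 3 each; difference 6.36 points, exact two-sided permutation p = 0.3, where 20 assignments allow none under 0.1). For control 2, 0 of 111 peaks allows a share of up to 3.35% (95% Wilson limit). The share inside protein-coding genes was 60.7%, 41.0% and 58.1% in knockdown 1, 2 and size3, against 44.8%, 42.3% and 50.5% in control 1, 2 and size3. Its means were 53.3% ± 10.7 in knockdown and 45.9% ± 4.17 in control (SD, n = 3 each; difference 7.39 points, exact two-sided permutation p = 0.4). Knockdown 2 lay within or below the control values in both shares. Without it the differences were 10.0 and 14.6 points and the groups did not overlap, which follows from leaving out the library that made them overlap. The exact two-sided permutation p was then 0.1 for each, the smallest that 2 libraries against 3 allow. Without knockdown 1 the differences were 4.56 and 4.01 points, and without knockdown size3 6.04 and 5.02 points. In both of these cases the exact two-sided permutation p was 0.5 at gene ends and 0.7 inside genes.

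**Figure D5:**
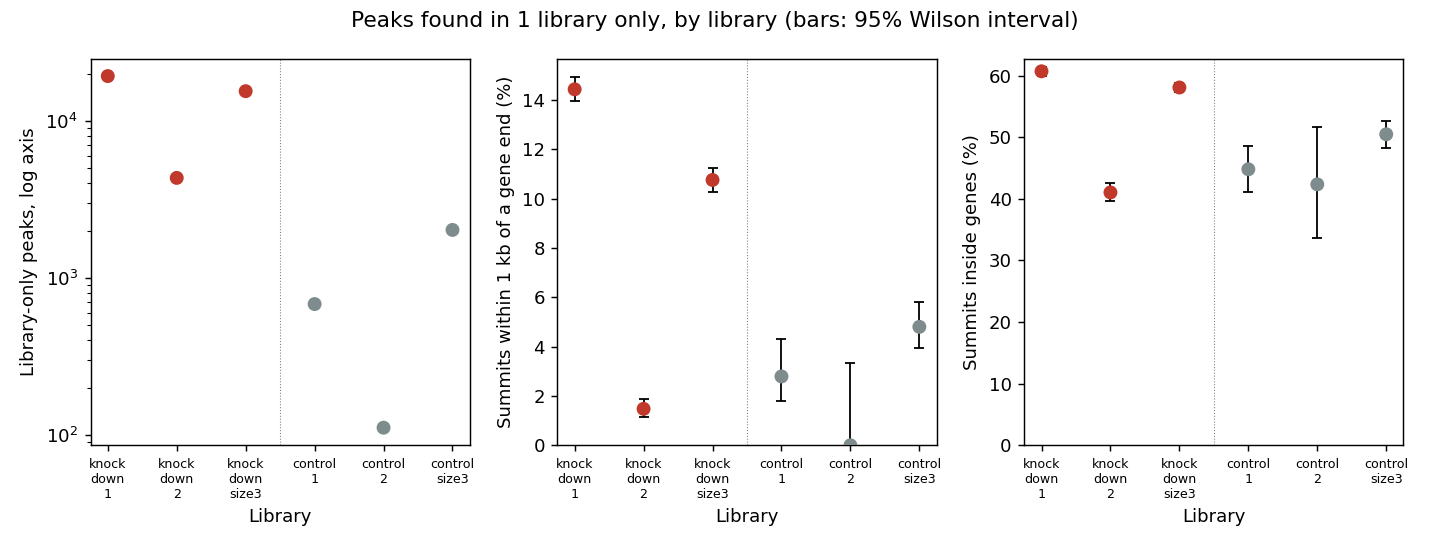
Number of library-only peaks (log axis), their share with a summit within 1 kb of a protein-coding gene end (%) and their share inside protein-coding genes (%), with knockdown libraries left of control libraries; bars are 95% Wilson intervals. Knockdown size3 stands at 15475 peaks, 10.8% and 58.1%, and knockdown 2 at 4336 peaks, 1.48% and 41.0%.

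The plot of library-only peaks by library shows knockdown 1 and knockdown size3 together at the top of each panel.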

How the data were processed

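Peak lists of 6 immunoprecipitates, each with its own input, were analysed from a study of 12 samples. The submitters' processing notes name cutadapt, Bowtie2 and the build GRCm38. Per the file headers, MACS 1.4.2 called peaks on uniquely mapped reads at a p-value threshold of 1.00e-05 with 1 read kept per position, without pooling. Per the file headers, the deposited values are the count of reads per peak, a score (negative log10 of the p-value, multiplied by 10), a fold enrichment ratio over local input, a false discovery rate in percent, and positions and widths in bp. Duplicate removal and the input's depth affect which regions pass, and each list depends on its own input.

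A member was a knockdown size3 peak overlapping no other list by 1 bp. Summits were placed on 21887 protein-coding genes of the RefSeq table for GRCm38.p6, the build of the lists' alignment, and starts on 32851 RefSeq promoter windows (27025 genes), none on chromosome 18. All 554 gene list entries matched a symbol. The members, lists and tests were chosen with earlier results of these data known. Groups came from the sample titles and shares of summits were compared by exact two-sided permutation. Named regions were, by rule, the 8 with the highest score, the 6 with the highest fold at a false discovery rate of at most 5%, the 5 widest, the 5 with the most reads, the 8 genes with the most members, up to 3 genes per list (gene ends first, then fold) and Macf1. A few of the regions and genes so named are left out of the text. Python 3.11.15, pandas 2.3.3, numpy 2.4.6, scipy 1.17.1 and matplotlib 3.10.9 were used. The overlap and gene position steps were tested on known answers, planted at peaks and genes of these data. Alternatives were other overlap distances, stricter peaks, other windows and gene sets, placed chromosomes, the replicate label as a block, and each library left out.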

Additional observations from a re-analysis of the deposited data

How the results depend on the processing

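Under the alternatives, 84 values stayed within the limits set for a change, 19 moved and none changed sign. For the group differences, only a reversed sign could count as a change, because their exact permutation p could not fall under 0.1. Their place among the 84 therefore says nothing of how far their size moved. With a false discovery rate of at most 5%, there were 8882 members, with 11.96% at gene ends and medians of 667 bp, 18 reads and a fold of 9. With a score of at least 100 there were 678 members, with 19.03% at gene ends, 65.0% inside genes, medians of 941.5 bp, 29 reads and a fold of 10.4, and 593 genes with a member. A window of 5 kb gave 25.8% at gene ends, and all genes of the table gave 16.1% at gene ends and 66.0% inside genes. Leaving out each other library gave 15477 to 17492 members, 10.8% to 12.9% at gene ends, 58.0% to 59.6% inside genes, median widths of 631 to 647 bp, median reads of 16 to 17, median folds of 8.1 to 8.27 and 6865 to 7740 genes. The upper counts and the lower fold came without knockdown 1. Counting a gap of up to 1 kb as shared left 14811 members.

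Leaving out each library, the group differences ran from 3.21 to 5.31 in log2 number, from 4.56 to 10.0 points at gene ends and from 4.01 to 14.6 points inside genes, with exact permutation p between 0.1 and 0.7 for the shares. With a score of at least 100, the differences were larger, at 12.9 points at gene ends and 21.4 inside genes (exact permutation p of 0.2 and 0.5). At that score control 1, 2 and size3 held only 10, 2 and 19 library-only peaks. With the label as a replicate block, the differences were 4.35, 6.36 and 7.39, with exact sign-flip permutation p of 0.25 at gene ends and 0.5 inside genes, where 0.25 is the smallest possible. Same-labelled libraries had correlations over 20 chromosomes of -0.55, 0.16 and 0.34 in their deviations, so the labels were not taken to pair the libraries. With 8175173 immunoprecipitate reads and a smallest member of 11 reads, weaker regions were not detectable at this depth, and a peak missing from another list is not shown to be absent there.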
